A study of Rattus norvegicus with 6 samples.

Results

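The genes described here are 40 genes of glycolysis and of the hypoxia response, in 4 lists: 19 glycolytic enzymes, 4 glucose and lactate transporters, 7 subunits and oxygen sensors of hypoxia-inducible factor (HIF), and 10 genes known as targets of HIF. A gene was read from the deposited array table wherever a probe set, the group of short oligonucleotides that measures a transcript, carried its symbol and no other. By that rule 37 of the 40 genes were measured, on 54 of the 31042 probe sets tested, out of 14217 genes with such a probe set in the whole table. Hypoxia-inducible factor 1 alpha inhibitor (Hif1an) had no matching probe set. The glycolytic enzymes Gapdh and Pkm lay on probe sets shared with the symbols Gapdhl10 and Pkm-ps20, which were not used, and Gapdh was otherwise read only by 3 array controls.

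The study asked how CREB3L1, a membrane-bound transcription factor of the endoplasmic reticulum that is cleaved to enter the nucleus, alters gene expression in LN4D6, a line of rat mammary tumour cells. It held 6 Affymetrix arrays of total RNA: 3 from untransfected LN4D6 cells and 3 from LN4D6 cells that had received CREB3L1. Both groups were grown at 37 °C in 5% CO2, and the labels name no hypoxic culture. The controls had received no construct, so CREB3L1 and transfection itself cannot be told apart. The labels do not say whether the arrays came from separate cultures, so a p-value here covers only sample-to-sample spread, which may be technical. Whether the transfected cells were 1 clone, and from which species the construct came, is not given in the sources used here.

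Glycolysis splits glucose to pyruvate in the cytosol, and lactate dehydrogenase then turns pyruvate to lactate. When oxygen is scarce, the prolyl hydroxylases of the Egln family no longer mark the HIF alpha subunits for the von Hippel-Lindau protein, so HIF accumulates, pairs with Arnt and binds hypoxia response elements. Its targets include glycolytic enzymes, glucose and lactate transporters, and genes that limit mitochondrial work, and many tumour cells keep the same genes high in normal oxygen.

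The rat Creb3l1 probe set did not register the transfection: it read 3.34, 3.38 and 3.37 (log2) on the untransfected arrays and 3.38, 3.42 and 3.36 on the arrays labelled CREB3L1, all below the level of log2 5 taken as background. The group labels therefore have no check in the transfected gene, and every direction rests on them. Of 9 epithelial markers measured, Krt5, Krt8 and Krt14 averaged between 13.17 and 15.25 in the groups, and Cdh1, Epcam, Krt18, Krt19, Cldn4 and Cldn7 were below background. Among markers of other cells, Cd14, Csf1r and Col3a1 were above background, while Ptprc, Cd68, Pecam1, Col1a1 and Dcn were below it. None of the markers measured passed the test described next, and 1, at an endothelial gene below background, had an unadjusted p under 0.05. Replicate 3 of the arrays labelled CREB3L1 stood apart: its Gapdh control read 4.77 log2 units higher at the 3′ end than at the 5′ end, against -0.16 to -0.10 on the other 5 arrays. For beta-actin that gap was 7.44 against 2.35 to 3.41. Among the 30 members above background in a group, replicate 3 lay outside the range of the other 5 arrays for 24. Differences without it are given for the members and the named genes above background.

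With limma and Benjamini-Hochberg adjustment over all tested probe sets, 7 of the 37 measured members fell in the arrays labelled CREB3L1 and 0 rose. Over all 14217 genes, 1.52% fell and 0.577% rose, and of the 7652 genes with a mean of log2 5 or more, 2.42% fell and 1.01% rose. At an unadjusted p under 0.05, 12 members were lower and 0 higher, against 7.99% and 6.05% of all genes. An ordinary test without moderated variance called 0 members in either direction, and 45 genes lower and 7 higher over all 14217. The members that fell were the enolase Eno2, the lactate dehydrogenase subunit Ldhb, the regulatory enzyme Pfkfb3, and the HIF-regulated genes Mxi1, Ndrg1, Ankrd37 and Bnip3. Without replicate 3 of CREB3L1, 9 members fell and 0 rose, against 3.7% and 2.02% of all genes, or 6.25% and 3.58% of those at log2 5 or more. The samples are bulk RNA, in which fewer cells of a type and less RNA per cell cannot be told apart.

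By list, 3 of 17 glycolytic enzymes and 4 of 10 HIF-regulated genes fell, while 0 of 4 transporters and 0 of 6 HIF subunits and oxygen sensors did. At an unadjusted p under 0.05, 0 transporters and 2 HIF subunits or sensors were lower. The HIF-regulated genes had a median difference of -0.76 (log2, CREB3L1 minus untransfected), or -0.55 without replicate 3. The glycolytic enzymes had a median of -0.08 (-0.14 without replicate 3), the transporters -0.12 (-0.066) and the HIF subunits and sensors -0.14 (-0.096), and all genes had a median of -0.01. Over members with a mean of log2 5 or more, the medians were -0.09 for 13 glycolytic enzymes, -0.28 for 2 transporters and -0.18 for 4 HIF subunits and sensors, while all 10 HIF-regulated genes were at that level. All 3 arrays labelled CREB3L1 lay below all 3 untransfected arrays for 15 of the 37 members, against 10.7% of all genes and 16.2% of those at log2 5 or more. The reverse held for 0 members, against 9.0% and 14.7%. Of those 15, 8 were HIF-regulated genes, 4 glycolytic enzymes, 2 HIF subunits or sensors and 1 a transporter.

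**Figure D1:**
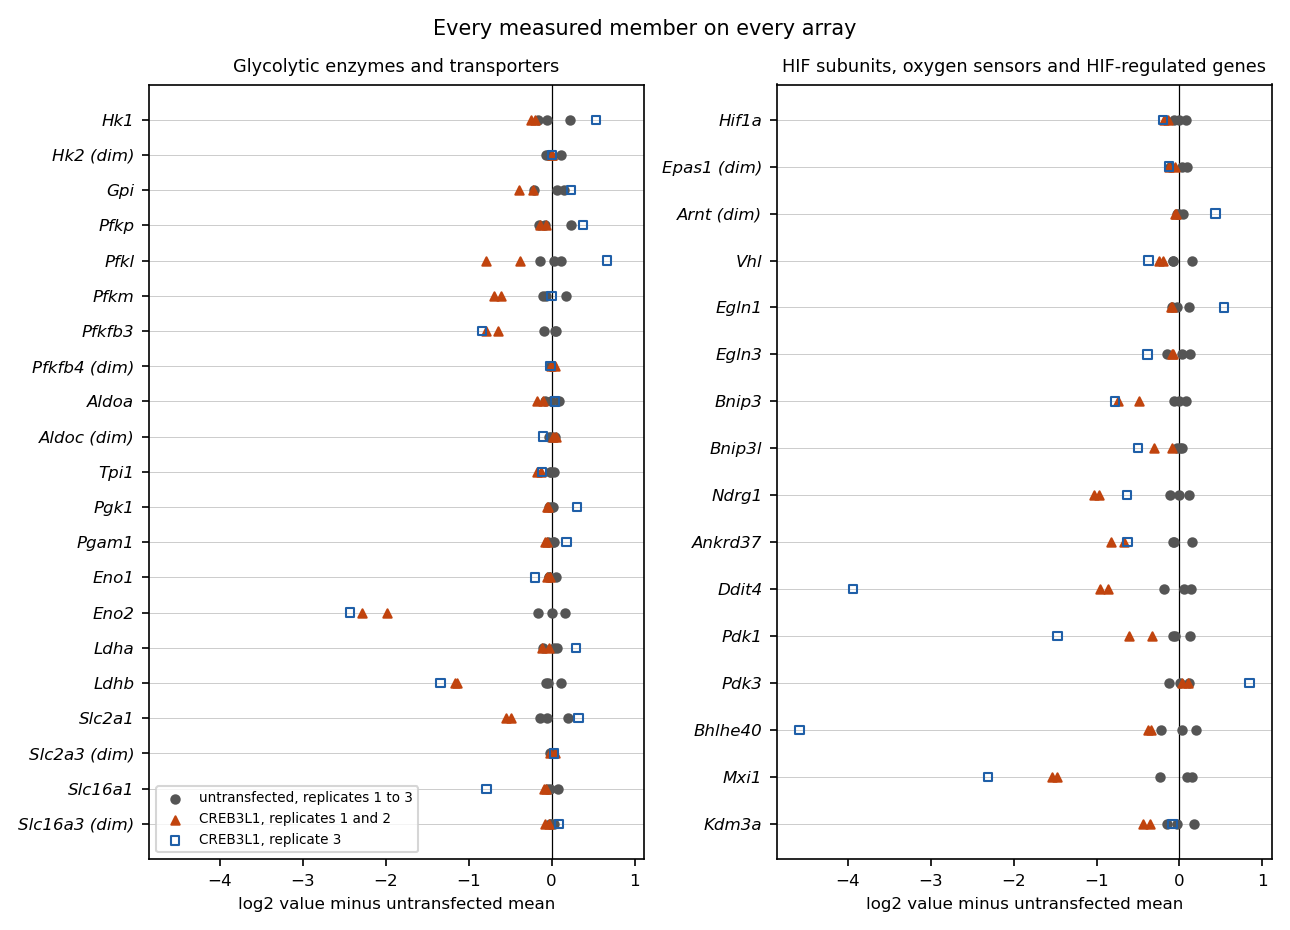
Each point is 1 array's log2 value minus the untransfected mean of that gene, with 1 row per measured member and 1 panel per group of lists; genes below log2 5 in both groups are marked dim. Eno2 and Ldhb sit far left on all 3 arrays labelled CREB3L1, while replicate 3 departs from the other arrays of its group for genes such as Bhlhe40, Ddit4 and Pfkl.

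The promoters of the members were searched for the core letters of the hypoxia response element, ACGTG and GCGTG, on both strands in the 250 bases before each annotated start. The sequences come from RefSeq (GRCr8), where 36 members matched 41 promoters. ACGTG stood in 18 of the 41 (43.9%), against 16.6% of all 33469 promoters. GCGTG stood in 19 (46.3%) against 25.9%, and ACGTG or GCGTG in 27 (65.9%) against 36.7%. The lists hold genes known as HIF targets, and all promoters were not matched to the members, so these shares test nothing. Of the 6 members that fell and had a promoter entry, 5 held ACGTG, and Ldhb held GCGTG only. Members above background that missed the test held the same letters: 11 of their 26 promoters held ACGTG, and 18 held either core. The cAMP response element TGACGTCA was in 2 of 41 member promoters (Ldha and Arnt) and in 0 of the 6 that fell, against 1.59% of all, and its part TGACGT, which can overlap ACGTG, was in 3 and 0, against 6.95%. ACGTG within CACGTG reads on both strands.

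Below are 4 promoters of members that fell and that of Ldha, a HIF target that missed the test while carrying both motifs, chosen after the values were seen. Capitals mark ACGTG or GCGTG on either strand, and each runs 5′ to 3′ along the gene's own strand.
Eno2 (chr4:159267221-159267470, minus strand): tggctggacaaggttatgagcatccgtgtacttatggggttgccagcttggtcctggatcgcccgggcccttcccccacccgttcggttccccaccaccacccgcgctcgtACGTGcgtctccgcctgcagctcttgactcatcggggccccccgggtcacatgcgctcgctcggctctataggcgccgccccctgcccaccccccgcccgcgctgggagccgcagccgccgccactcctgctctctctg
Pfkfb3 (chr17:71944683-71944932, plus strand): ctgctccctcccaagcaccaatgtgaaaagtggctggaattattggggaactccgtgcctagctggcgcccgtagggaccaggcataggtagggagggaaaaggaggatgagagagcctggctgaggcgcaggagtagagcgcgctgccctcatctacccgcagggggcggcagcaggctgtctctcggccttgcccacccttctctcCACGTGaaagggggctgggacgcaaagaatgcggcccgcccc
Bnip3 (chr1:203154963-203155212, minus strand): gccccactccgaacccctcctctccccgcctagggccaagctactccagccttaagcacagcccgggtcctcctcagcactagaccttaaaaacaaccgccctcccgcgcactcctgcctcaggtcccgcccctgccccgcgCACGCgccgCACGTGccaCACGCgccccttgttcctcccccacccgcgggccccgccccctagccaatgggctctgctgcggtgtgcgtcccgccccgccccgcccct
Ankrd37 (chr16:53001257-53001506, plus strand): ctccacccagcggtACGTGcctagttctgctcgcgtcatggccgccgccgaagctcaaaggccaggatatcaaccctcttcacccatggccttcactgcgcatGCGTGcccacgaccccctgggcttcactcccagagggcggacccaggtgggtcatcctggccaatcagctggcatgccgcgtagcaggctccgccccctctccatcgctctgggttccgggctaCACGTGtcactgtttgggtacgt
Ldha (chr1:106507842-106508091, plus strand): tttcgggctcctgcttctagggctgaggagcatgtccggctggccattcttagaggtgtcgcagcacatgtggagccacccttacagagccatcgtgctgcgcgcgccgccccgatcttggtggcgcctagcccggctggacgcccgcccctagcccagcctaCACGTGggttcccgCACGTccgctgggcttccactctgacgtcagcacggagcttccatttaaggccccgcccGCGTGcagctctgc
ACGTG begins 139 bases before the start of Eno2. In Pfkfb3 it lies in CACGTG at 41 bases, in Bnip3 in CACGTG at 98 bases between 2 copies of GCGTG, and in Ankrd37 at 236 bases and again in CACGTG at 22 bases. Ldha holds CACGTG at 86 bases and a further ACGTG at 73. These matches describe letters only, and binding was not measured here.

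Among the glycolytic enzymes, the largest fall was in Eno2, the neuronal form of enolase, which turns 2-phosphoglycerate into phosphoenolpyruvate. Eno2 read 10.70, 10.88 and 11.03 (log2) on the untransfected arrays and 8.89, 8.59 and 8.44 on the arrays labelled CREB3L1. Every array labelled CREB3L1 was low, with no overlap and a gap far wider than the spread in either group. The means were 10.87 ± 0.16 (SD, n = 3) and 8.64 ± 0.23 (SD, n = 3), a difference of -2.23 ± 0.14 (SE) or 4.69-fold lower, with an adjusted p of 0.0043 by limma. Without replicate 3 the difference was -2.13 with an adjusted p of 0.0032.

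Ldhb, the heart-type subunit of lactate dehydrogenase, fell as well. It read 11.35, 11.17 and 11.19 on the untransfected arrays and 10.07, 10.10 and 9.90 on the arrays labelled CREB3L1. The 2 groups were tight and well separated. The difference was -1.21 ± 0.08 (SE, n = 3 per group), or 2.32-fold lower, with an adjusted p of 0.0042 by limma, and it was -1.15 without replicate 3.

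Pfkfb3, which makes fructose 2,6-bisphosphate and so drives phosphofructokinase, was near background. It read 5.33, 5.31 and 5.18 on the untransfected arrays and 4.63, 4.48 and 4.44 on the arrays labelled CREB3L1. The untransfected arrays were all just above log2 5 and the others all just below it. The difference was -0.76 ± 0.07 (SE, n = 3 per group) with an adjusted p of 0.0134 by limma, or at least 1.21-fold lower against the background level. Without replicate 3 the difference was -0.72. Its other 2 probe sets were below background in both groups. The Pfkfb3 call was lost without CREB3L1 replicate 2 (adjusted p = 0.0773), without untransfected replicate 1 (0.0789) and without untransfected replicate 2 (0.0863).

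**Figure D2:**
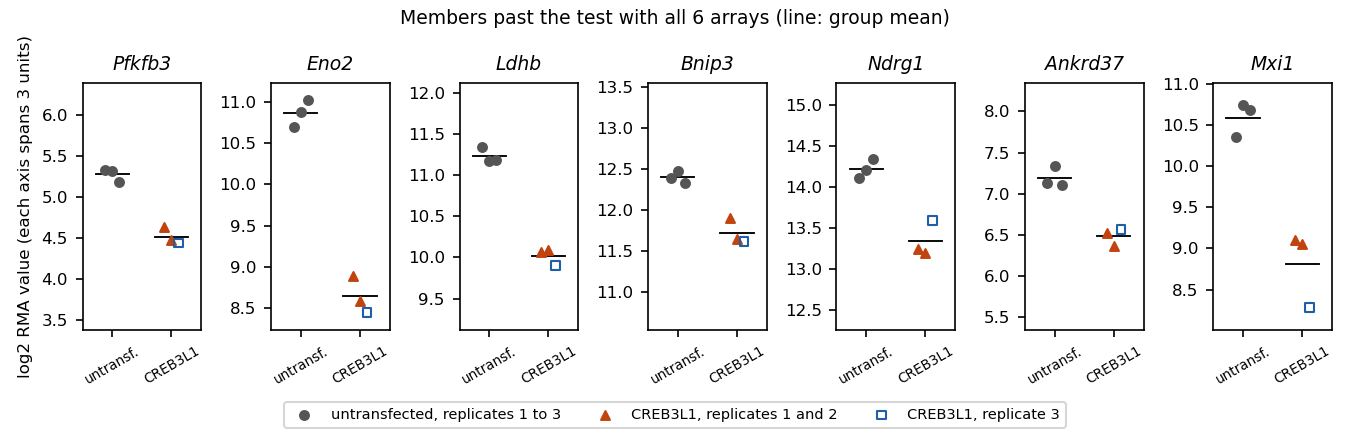
Log2 RMA values of the 7 members that fell, by array, with the group mean as a line; each panel's axis spans 3 log2 units, placed where that gene lies. The 3 arrays labelled CREB3L1 lie below the 3 untransfected arrays in every panel, and Eno2 is the widest apart, with a difference of -2.23.

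Phosphofructokinase, the enzyme of the committed step, has a muscle, a liver and a platelet form. The muscle form Pfkm read 6.29, 6.25 and 6.53 on the untransfected arrays and 5.66, 5.75 and 6.36 on the arrays labelled CREB3L1. Replicate 3 reached into the untransfected range, and the other 2 arrays of its group were lower. The difference was -0.43 ± 0.20 (SE, adjusted p = 0.658 by limma), and without replicate 3 it was -0.65 ± 0.10 (adjusted p = 0.0319). Its other 2 probe sets were below background.

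The liver form Pfkl read 9.47, 9.30 and 9.55 on the untransfected arrays and 9.06, 8.65 and 10.11 on the arrays labelled CREB3L1. Here replicate 3 was the highest array of all 6 and the other 2 of its group the lowest, so the difference of -0.17 ± 0.38 (SE) became -0.59 (adjusted p = 0.119 by limma) without it. The platelet form Pfkp read 13.30, 13.22 and 13.61 against 13.23, 13.30 and 13.75, and the groups overlapped with a difference of 0.05 ± 0.18 (SE) that was -0.11 without replicate 3.

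Hexokinase traps glucose as glucose 6-phosphate. Hk1 read 10.54, 10.44 and 10.82 on the untransfected arrays and 10.36, 10.41 and 11.14 on the arrays labelled CREB3L1. The groups overlapped, replicate 3 was again the highest array, and the difference of 0.03 ± 0.24 (SE) was -0.22 without it (adjusted p = 0.574 by limma). A second probe set of Hk1 and the hexokinase array controls, which were not tested, were below background in both groups. Hk2, the hexokinase most often tied to tumour glycolysis, read 2.36 to 2.55 on all 6 arrays, below background, as did the regulatory enzyme Pfkfb4 and the brain-type aldolase Aldoc in both groups.

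None of the remaining enzymes above background passed the test. Ldha, the muscle-type lactate dehydrogenase subunit, read 15.51, 15.34 and 15.47 on the untransfected arrays and 15.41, 15.32 and 15.73 on the arrays labelled CREB3L1. The groups overlapped, and the 95% interval of the difference of 0.05 ran from -0.25 to 0.35, with a difference of -0.07 without replicate 3. The phosphoglucose isomerase Gpi differed by -0.13 ± 0.19 (SE), and by -0.30 without replicate 3. The aldolase Aldoa differed by -0.08 ± 0.07 (-0.14 without replicate 3) and the common enolase Eno1 by -0.09 ± 0.06 (-0.033). The phosphoglycerate kinase Pgk1 at 0.07 ± 0.11 and the phosphoglycerate mutase Pgam1 at 0.02 ± 0.08 turned negative without replicate 3, at -0.052 and -0.064. A second probe set of Pgk1 above background differed by -0.035 ± 0.033, and by -0.030 without replicate 3. The triose phosphate isomerase Tpi1 differed by -0.14 ± 0.03 (-0.15 without replicate 3), with groups that did not overlap and an adjusted p of 0.178 by limma. None of these 6 passed the test with or without that array.

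Gapdh, which oxidises glyceraldehyde 3-phosphate, was read by 3 control probe sets along its transcript, which were not tested. At the 3′ end it read 15.70, 15.59 and 15.63 on the untransfected arrays and 15.62, 15.58 and 15.67 on the arrays labelled CREB3L1, a difference of -0.02. At the 5′ end it read 15.86, 15.74 and 15.73 against 15.76, 15.74 and 10.90. Only replicate 3 was low there, and the difference of -1.64 was -0.03 without it.

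Of the transporters, the glucose carrier Slc2a1 (GLUT1) read 12.95, 12.86 and 13.20 on the untransfected arrays and 12.51, 12.45 and 13.33 on the arrays labelled CREB3L1. Replicates 1 and 2 of CREB3L1 were the lowest arrays and replicate 3 the highest. The difference was -0.24 ± 0.26 (SE), and without replicate 3 it was -0.52 with an adjusted p of 0.0757 by limma. Slc16a1 (MCT1), which carries lactate across the membrane, differed by -0.31 ± 0.21 (SE, adjusted p = 0.923), and by -0.08 without replicate 3. Slc2a3 (GLUT3) and Slc16a3 (MCT4) were below background in both groups.

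The HIF alpha subunit Hif1a was high in both groups, at 15.35, 15.50 and 15.42 on the untransfected arrays and 15.28, 15.24 and 15.23 on the arrays labelled CREB3L1. The arrays labelled CREB3L1 were all slightly lower. The difference of -0.17 ± 0.05 (SE) had an adjusted p of 0.253 by limma and did not pass the test, and it was -0.16 without replicate 3. These values measure transcript, and HIF is controlled largely through the stability of its protein, which was not measured. The second alpha subunit Epas1 read 2.98, 3.18 and 3.12 against 3.04, 2.96 and 2.97. The partner subunit Arnt read 2.35, 2.32 and 2.39 against 2.31, 2.29 and 2.79. Both were below background on every array, so no fold is given.

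Vhl was counted in the list of HIF subunits and oxygen sensors, though it is neither and marks HIF for degradation. It read 10.42, 10.43 and 10.66 on the untransfected arrays and 10.30, 10.26 and 10.13 on the arrays labelled CREB3L1. The groups did not overlap, but the difference of -0.27 ± 0.09 (SE) had an adjusted p of 0.35 by limma, and it was -0.22 without replicate 3. The prolyl hydroxylase Egln1 differed by 0.11 ± 0.19 (SE), and by -0.10 without replicate 3. Egln3, a hydroxylase that HIF itself induces, differed by -0.19 ± 0.11 (SE, adjusted p = 0.866), and by -0.087 without replicate 3.

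In the HIF-regulated list, the largest fall past the test was in Mxi1, a repressor that competes with Myc for its partner Max. Mxi1 read 10.35, 10.74 and 10.68 on the untransfected arrays and 9.11, 9.05 and 8.29 on the arrays labelled CREB3L1. All 3 were low, replicate 3 the most. The means were 10.59 ± 0.21 (SD, n = 3) and 8.82 ± 0.46 (SD, n = 3), a difference of -1.77 ± 0.25 (SE) or 3.42-fold lower, with an adjusted p of 0.0495 by limma, at the edge of the threshold. Without replicate 3 the difference was -1.51 with an adjusted p of 0.0072. A second, dimmer probe set differed by -0.33 ± 0.12 (SE, adjusted p = 0.448), in the same direction with no overlap.

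Ndrg1, a stress gene linked to differentiation, read 14.11, 14.21 and 14.34 on the untransfected arrays and 13.25, 13.19 and 13.59 on the arrays labelled CREB3L1. The groups did not overlap, and replicate 3 was the nearest to the untransfected arrays. The difference was -0.87 ± 0.12 (SE), or 1.83-fold lower, with an adjusted p of 0.0481 by limma, and it was -0.996 (adjusted p = 0.0054) without replicate 3. A second probe set differed by -1.76 ± 0.55 (SE, adjusted p = 0.34), with no overlap. It read 4.96, 5.80 and 4.37 on the arrays labelled CREB3L1, a mean of 5.04 at the edge of background.

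Ankrd37, an ankyrin repeat protein, read 7.12, 7.33 and 7.11 on the untransfected arrays and 6.52, 6.36 and 6.56 on the arrays labelled CREB3L1. All 3 were low and close together. The difference was -0.71 ± 0.09 (SE), or 1.63-fold lower, with an adjusted p of 0.0321 by limma, and -0.75 without replicate 3. Bnip3, which directs mitochondria to autophagy, read 12.39, 12.47 and 12.33 on the untransfected arrays and 11.90, 11.65 and 11.62 on the arrays labelled CREB3L1. The groups were again apart. The difference was -0.67 ± 0.09 (SE), or 1.59-fold lower, with an adjusted p of 0.0407 by limma, and -0.62 without replicate 3.

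The calls in this list depended on single arrays. The count of HIF-regulated genes that fell was 5 without CREB3L1 replicate 3, 1 without CREB3L1 replicate 1 and 0 without CREB3L1 replicate 2 or without any of the 3 untransfected replicates. The direction of the 4 genes was the same in each of these fits. With 3 arrays per group, the number of arrays limits the precision.

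Ddit4 (REDD1), which restrains mTORC1 under stress, passed the test, like Pfkm, only when replicate 3 was left out. It read 10.94, 11.02 and 10.70 on the untransfected arrays and 10.02, 9.93 and 6.96 on the arrays labelled CREB3L1. All 3 were low, and replicate 3 fell far below its own group. With it the difference was -1.92 ± 0.87 (SE, adjusted p = 0.635 by limma), and without it -0.91 ± 0.10 (adjusted p = 0.0167).

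Bhlhe40, a transcriptional repressor, read 9.08, 9.50 and 9.33 on the untransfected arrays and 8.92, 8.96 and 4.72 on the arrays labelled CREB3L1. Replicate 3 was far below the other 5 arrays. The difference of -1.77 ± 1.22 (SE) was -0.37 (adjusted p = 0.274 by limma) without it. Pdk1, the kinase that shuts pyruvate dehydrogenase, read 10.87, 11.07 and 10.89 against 10.61, 10.33 and 9.47. All 3 arrays labelled CREB3L1 were lower, with a difference of -0.81 ± 0.30 (SE, adjusted p = 0.471), and -0.47 (adjusted p = 0.0933) without replicate 3. On a second, dimmer probe set of Pdk1 the groups overlapped. The difference there was -0.14 ± 0.08 (SE, adjusted p = 0.845 by limma), and -0.23 without replicate 3. Bnip3l, a relative of Bnip3, differed by -0.30 ± 0.11 (SE, adjusted p = 0.424) and, on a second probe set, by -0.29 ± 0.07 (adjusted p = 0.207), with no overlap on either. Without replicate 3 these were -0.20 and -0.27. The histone demethylase Kdm3a differed by -0.29 ± 0.12 (SE, adjusted p = 0.575), and by -0.39 without replicate 3. Pdk3 was the exception in sign, at 0.32 ± 0.23 (SE, adjusted p = 0.977), or 0.06 without replicate 3. Its second probe set, also above background, differed by -0.05 ± 0.31 (SE), with overlap, and by 0.28 without replicate 3.

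**Figure D3:**
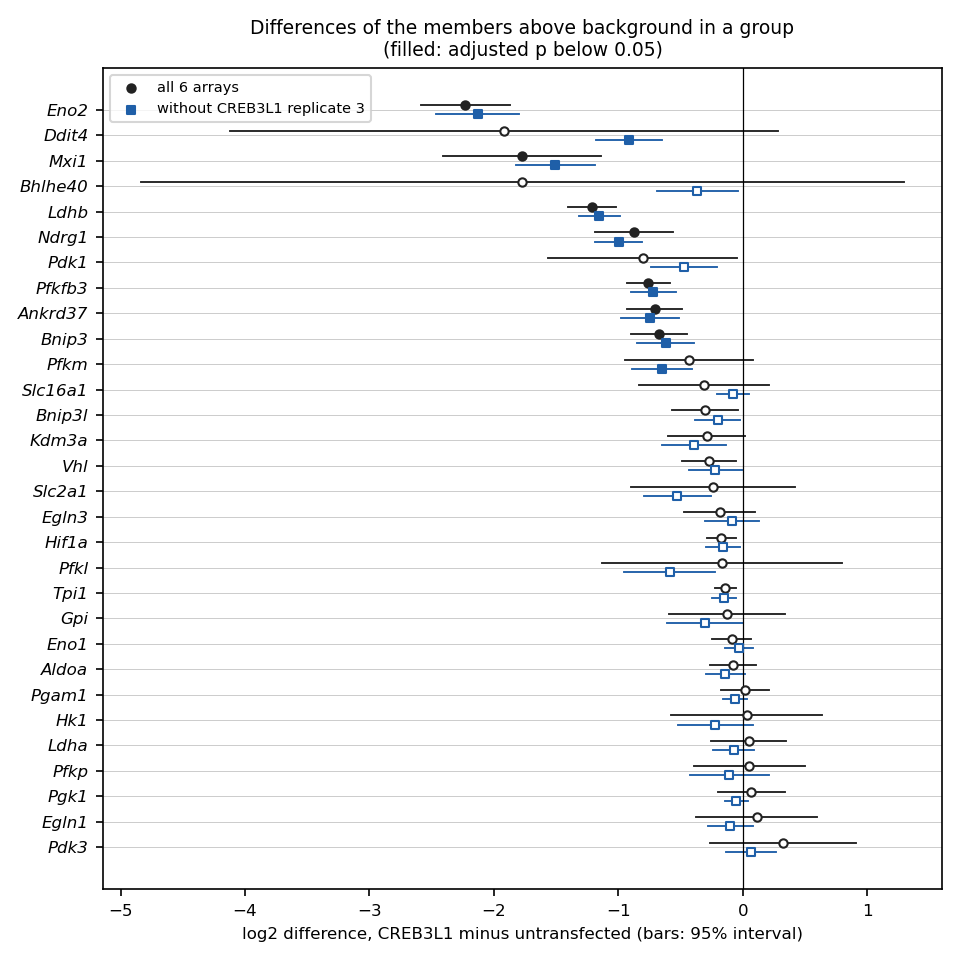
Log2 difference, CREB3L1 minus untransfected, of the 30 members above background in a group, over all arrays and without replicate 3 of CREB3L1. Bars are 95% intervals, and points are filled where the adjusted p of that fit is below 0.05. Over all arrays, the 7 filled points lie below 0, from -2.23 for Eno2 to -0.67 for Bnip3. The intervals of Ddit4 and Bhlhe40 are wide there. Without replicate 3, the 9 filled points lie below 0, from -2.13 for Eno2 to -0.62 for Bnip3.

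Of the 29 members with a mean of log2 5 or more over all arrays, 22 had a negative difference, against 48.8% of all genes at that level. Without replicate 3 of CREB3L1, 28 of the 29 did, against 52.1%. Pdk3 was the exception. The members were chosen with earlier results of these data known, so these counts describe the list and test nothing.

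Related genes were compared within each array, as the log2 value of one minus that of the other, for 5 pairs chosen after their values were seen. The ratio of Eno2 to Eno1 went from -3.16 ± 0.21 (SD, n = 3) to -5.30 ± 0.15, a change of -2.14, or -2.10 without replicate 3. That of Ldhb to Ldha went from -4.20 ± 0.07 to -5.47 ± 0.32, a change of -1.26 (-1.08 without replicate 3). In both pairs all 3 arrays labelled CREB3L1 lay below all 3 untransfected arrays. Bnip3 minus Bnip3l changed by -0.37 (-0.42 without replicate 3) and Pdk1 minus Pdk3 by -1.13 (-0.54 without replicate 3), also without overlap. Second probe sets of Pdk1 and Pdk3, also above background, differed between the groups by only -0.14 and -0.05 over all arrays, with overlap in each. Without replicate 3 they differed by -0.23 and 0.28. The probe sets thus disagreed on this pair with replicate 3 included. Without it, both probe sets of Pdk1 were lower and both of Pdk3 higher. The groups overlapped for Egln3 minus Egln1, which changed by -0.30 (0.01 without replicate 3). Since the pairs were chosen after their values were seen, no test is given. Such a ratio sets 2 probe sets side by side, so only its change between groups can be read.

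**Figure D4:**
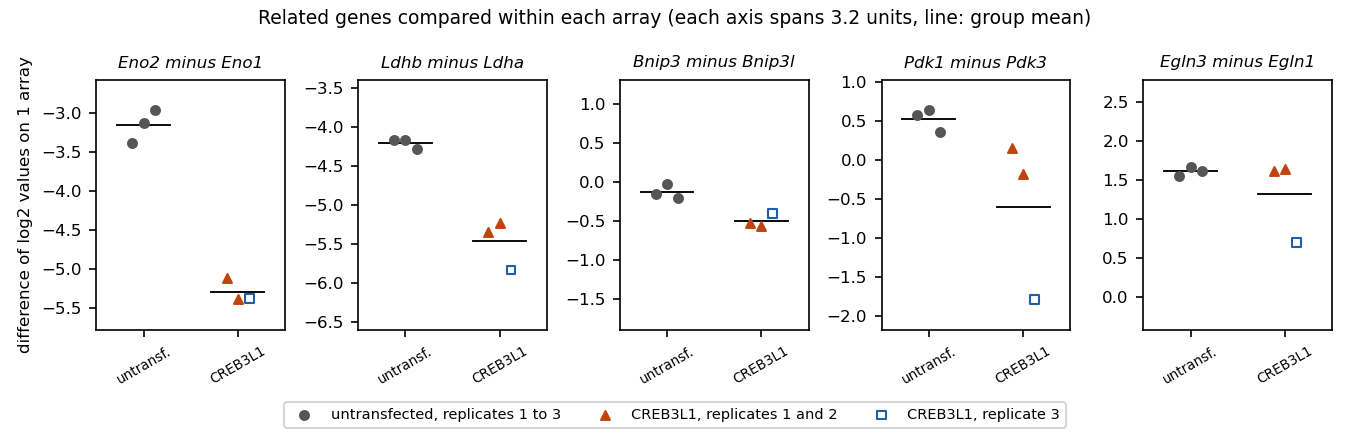
Difference of log2 values between 2 related genes on the same array, with the group mean as a line and axes that all span the same number of log2 units. The 3 arrays labelled CREB3L1 lie below the untransfected arrays for Eno2 minus Eno1 and Ldhb minus Ldha, and overlap them for Egln3 minus Egln1.

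Other genes of the same pathways were read from wider lists. Of 21 other glycolysis genes measured, 1 fell and 0 rose, and 2 fell without replicate 3, against the 1.52% and 0.577% of all genes that fell and rose, or 3.7% and 2.02% without that array. At an unadjusted p under 0.05, 3 were lower and 0 higher. The one that fell was Gpd1, the cytosolic glycerol 3-phosphate dehydrogenase that draws carbon from glycolysis into glycerol, from 10.46 ± 0.11 (SD, n = 3) to 7.60 ± 0.47, a difference of -2.86 ± 0.24 (SE) or 7.26-fold lower (adjusted p = 0.0101 by limma), and -3.13 without replicate 3. Of 35 other HIF-regulated genes measured, 4 fell and 0 rose, and without replicate 3, 8 fell and 1 rose, read against the same shares. The one that rose was the transferrin receptor Tfrc, named after its values were seen. Its difference was 0.54 (adjusted p = 0.0228 by limma) without replicate 3 and 0.66 ± 0.12 (SE, adjusted p = 0.0998) with it. A second probe set of Tfrc, also above background, differed by 0.32 ± 0.54 (SE), with overlap. Without replicate 3 that difference was 0.87 (adjusted p = 0.282 by limma), so this probe set missed the test in both fits. At an unadjusted p under 0.05, 9 of the 35 were lower and 2 higher, and the ordinary test called 2 lower. The lipid droplet protein Hilpda fell by 0.90 ± 0.05 (SE, log2, adjusted p = 0.0027 by limma), and its difference was -0.88 without replicate 3. The angiogenic factor Vegfa fell by 0.87 ± 0.05 (SE, adjusted p = 0.0040), with -0.91 without replicate 3. The haem oxygenase Hmox1 fell by 1.15 ± 0.09 (SE, adjusted p = 0.0089), with -1.24 without replicate 3, and the glycogen branching enzyme Gbe1 by 0.75 ± 0.08 (SE, adjusted p = 0.0227), with -0.81. The median of the 35 genes was -0.07, and that of the 21 with a mean of log2 5 or more was -0.40 (-0.32 without replicate 3), with 18 of the 21 negative.

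Hilpda and Vegfa kept their calls with any 1 array left out. Gpd1 and Gbe1 lost theirs without any array other than replicate 3 of CREB3L1, with adjusted p by limma up to 0.0675 and 0.119. Hmox1 lost its call without CREB3L1 replicate 1 (adjusted p = 0.0544) or any untransfected array (up to 0.0642).

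None of 15 other HIF control genes passed the test. The ubiquitin ligase Siah2 differed by -0.81 ± 0.24 (SE, adjusted p = 0.318), or -0.98 without replicate 3, and the elongin subunit Eloc by 0.13 ± 0.07 (SE, adjusted p = 0.787), or 0.061. At the entry to mitochondria, 1 of 12 genes of the pyruvate dehydrogenase complex and its regulators fell, against 1.52% of all genes. It was the E1 alpha subunit Pdha1, lower by 0.56 ± 0.04 (SE, adjusted p = 0.0088 by limma), with a difference of -0.56 without replicate 3. That call was lost without CREB3L1 replicate 2 (adjusted p = 0.0583), without untransfected replicate 3 (0.0564) and with its probe sets averaged (0.285). None of 18 genes of the TCA cycle passed, with the malate dehydrogenase Mdh2 at 0.25 ± 0.07 (SE, adjusted p = 0.246), or 0.21 without replicate 3, and the succinate dehydrogenase subunit Sdhc at -0.25 ± 0.07 (SE, adjusted p = 0.275), or -0.23. None of 7 pentose phosphate genes passed, with the transketolase Tkt at -0.40 ± 0.08 (SE, adjusted p = 0.135), or -0.35 without replicate 3, and the isomerase Rpia at -0.38 ± 0.13 (SE, adjusted p = 0.382), or -0.25. At an unadjusted p under 0.05, 1 of the 15 HIF control genes and 1 of the 12 pyruvate dehydrogenase genes were lower. So were 1 of the 18 TCA cycle genes and 2 of the 7 pentose phosphate genes, and 1 TCA cycle gene was higher. Over all genes 7.99% were lower and 6.05% higher at that threshold. The ordinary test called 0 genes of these lists.

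**Figure D5:**
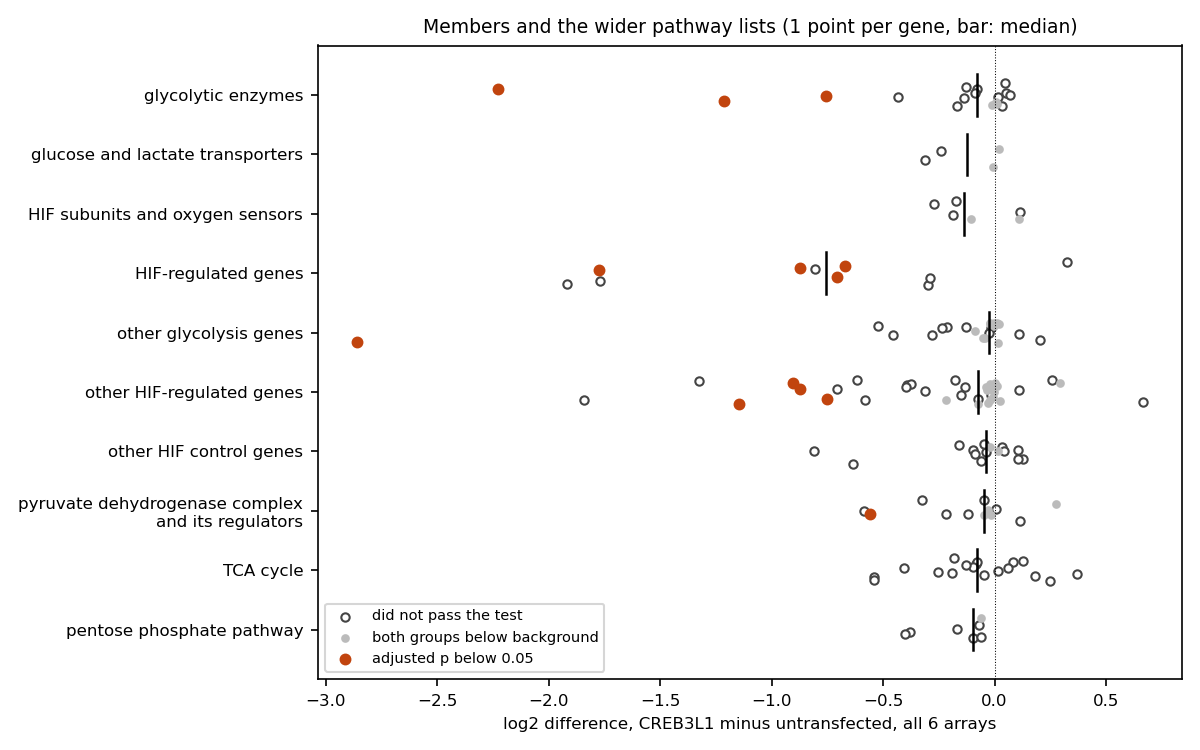
Log2 difference, CREB3L1 minus untransfected, over all 6 arrays, with 1 point per measured gene, 1 row per list and a bar at the list's median. The HIF-regulated members have the lowest median, at -0.76, where no gene is below background. The other medians lie between -0.14 and -0.03, and all of these lists but the TCA cycle include genes below background (grey). Over the genes with a mean of log2 5 or more, the median of the other HIF-regulated genes is -0.40.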

How the data were processed

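Total RNA of 6 LN4D6 samples was labelled with a 3′ kit and hybridised to Affymetrix rat arrays. The authors deposited log2 values for 31099 probe sets, which the submitters' processing notes credit to Partek 6.6 and RMA. The sources used here give neither probe-level settings nor a genome build. The values were used as deposited. The log2 scale was read from their range. RMA usually corrects background, equalises the arrays' distributions and summarises probes, so a change common to all genes would be removed.

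After 57 control probe sets were set aside, 31042 were tested with limma 3.58.1 in R 4.3.3 (2 group means, moderated variance, two-sided, Benjamini-Hochberg adjustment, threshold 0.05). Gene names came from GEO's platform annotation: 20826 probe sets had 1 symbol, 436 several and 9780 none, and the latter 2 kinds were unnamed. Symbols were checked against current RefSeq names, which changed 0. Where a gene had several probe sets, the one brightest on average over the 6 arrays stood for it. Levels below log2 5 counted as background, and a fold against such a group is a bound.

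Members and lists were chosen with earlier results of these data known. Array values are given for members past the test with or without replicate 3 of CREB3L1, for HIF subunits and for Hk1, Hk2, Pfkp, Pfkl, Pfkm, Ldha and Slc2a1 (Pkm had no probe set of its own symbol); those of Vhl, Bhlhe40, Pdk1 and Gapdh were added after their values were seen. Of the wider lists, up to 4 genes past the test are named, or the 2 with the smallest p. Alternatives changed the normalisation, centring, dim filter, variance model, array weights, probe set rule and replicates. No 2 arrays were copies. On simulated data of 31042 probe sets, 58% of changes of 0.5 log2 units, 90% of 1, 96% of 2 and 94% of 4 were recovered, with 15 false calls. The 50 changed probe sets of each size were drawn from all probe sets, those below background included. The noise was independent and normal, with no array that stood apart. These rates check the fit and do not give the recovery to be had for the members.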

Additional observations from a re-analysis of the deposited data

How the results depend on the processing

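The count of glycolytic enzymes that fell, 3 as reported, was 5 with array weights and 0 with the ordinary test, and 2 to 4 with 1 array left out. The count of HIF-regulated genes that fell, 4 as reported, was 2 when a gene's probe sets were averaged, with median centring, with quantile normalisation and with robust moderation, 0 with the ordinary test, and 0 to 5 with 1 array left out. No paired analysis was possible because no replicate number in the labels is shared between the groups.

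Eno2 and Ldhb kept their calls in every alternative but the ordinary test (adjusted p = 0.0547 and 0.0530 by limma without moderation), over ranges of 0.00061 to 0.0547 and 0.00055 to 0.0530. Leaving out replicate 3 of CREB3L1 lost 0 of the 13 called genes named (members and wider lists), and leaving out any other array lost 6 or 8. Of the 18 members run under every alternative, those that changed sign with array weights, all of which missed the test, were Hk1 (-0.18), Hk2 (-0.0053), Pfkp (-0.082), Ldha (-0.063) and Arnt (-0.034). Ldha also changed to -0.011 with quantile normalisation. With 1 array left out, Hk1 ranged from -0.22 to 0.17, Hk2 from -0.026 to 0.065, Pfkp from -0.11 to 0.17, Pfkl from -0.59 to 0.15, Ldha from -0.074 to 0.13 and Arnt from -0.051 to 0.20. The causes were not tested. Genes below log2 5 carry too little signal over background for a fold.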
